A study of Ipomoea batatas with 9 samples.

Results

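The contigs described here are the vacuolar endopeptidase inhibitors of the sweetpotato storage root that carry no sporamin symbol. A contig is a sequence assembled from reads. The members were all contigs of the deposited expression table whose gene ontology text holds both "endopeptidase inhibitor activity" and "vacuole" and whose symbol does not start with GSPO, the symbol of sporamin. This rule found 17 of 110110 contigs. The members were chosen by annotation text and symbol, and no measured value enters the rule; the family itself was proposed with earlier results of these data known. Its levels and fold changes are therefore given as descriptions, and nothing is inferred from them about the set. Storage roots of the cultivar Xushu 18 (Ipomoea batatas) were sequenced in 3 groups of 3 libraries: roots that were not stored, roots stored at 14 °C, and roots stored at 4 °C. Both stores had 85% relative humidity, and each library was made from a pool of 7 roots. How long the stored roots were kept is not stated in the labels, so time and temperature cannot be told apart when stored roots are set against the others. Each mean is over n = 3 libraries, and errors are SDs unless stated otherwise.

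Endopeptidase inhibitors of plants are small proteins that block digestive proteases, and many belong to the Kunitz family of trypsin inhibitors. Sporamin, the main soluble protein of the sweetpotato storage root, is a member of that family; it is kept in the vacuole, serves as a nitrogen store, and inhibits trypsin. A vacuolar inhibitor can therefore be a storage protein and a defence protein at once. Inside the vacuole such proteins meet proteases, among them legumains (vacuolar processing enzymes) and papain-like cysteine proteases, which process or break down stored proteins.

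All 17 members had the same 3 ontology terms: vacuole, endopeptidase inhibitor activity, and nutrient reservoir activity, the term for storage proteins. The 9 contigs with a GSPO symbol had the identical text, and these 26 were all contigs of the table that did. None of the members named the class of protease inhibited. Of the 17, 0 had a symbol, a product description or a KEGG entry. Only 1, comp15092_c1, had a KOG class (a grouping of related proteins), that of signal transduction mechanisms. The ontology text therefore does not tell the members apart from sporamin. As no sequences of the contigs were used here, neither their identity nor an inhibitory function was checked. They are named by their identifiers.

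Most members were short. Their lengths ran from 201 to 933 bases with a median of 247, against 474 for all contigs, and 13 of 17 had 300 bases or less. Each consisted of 1 transcript. The 933 bases of comp15092_c1 and the 707 of comp46747_c1 were the longest. The GSPO contigs had 208 to 1001 bases. For 5 members the assembly's component number differed by 1 from that of a GSPO contig, such as comp1392_c23 beside GSPO-B1 comp1393_c34. Sweetpotato is polyploid, and short pieces or near-identical copies may share reads, so the split of counts between members is uncertain and the members are not independent of each other or of the GSPO contigs.

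Together the members were among the most abundant transcripts of roots not stored and were far lower at 4 °C. They took 5.46% of all counts in roots not stored, 3.17% at 14 °C and 0.0115% at 4 °C. In CPM (counts per 1000000 counts after scaling between libraries), their sum was 68100, 57200 and 52700 in the 3 libraries of roots not stored. It was 27600, 28200 and 31100 at 14 °C, and 175, 158 and 22.2 at 4 °C. The 3 groups did not overlap. The mean sums of 59300 ± 7930, 29000 ± 1870 and 119 ± 83.9 CPM made roots not stored 2.05 times as high as roots at 14 °C, and roots at 14 °C 244 times as high as roots at 4 °C. Whether all counts in the libraries at 4 °C came from those roots, or some from reads of other libraries, was not tested; in the latter case every level at 4 °C given here is an upper limit and every fold against it a lower limit.

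**Figure D1:**
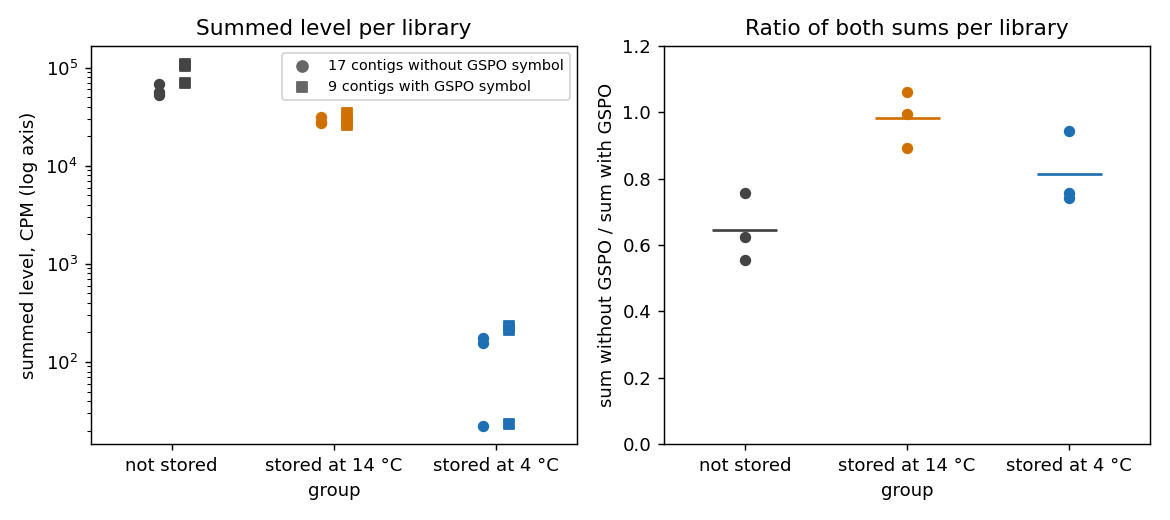
Left, summed level in CPM on a log axis in each library, for the 17 contigs without GSPO symbol (circles) and the 9 with it (squares), by group. Right, the ratio of both sums in each library, with group means as lines; the 3 libraries at 14 °C (0.891 to 1.06) lie above the 3 of roots not stored (0.554 to 0.757).

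In the edgeR quasi-likelihood test, fitted over all 94802 contigs that passed the filter on low counts, the 17 members were all tested. For 4 °C against 14 °C, 16 of 17 were called lower at a false discovery rate of 0.05 and 0 higher; over all contigs 47.8% were called, 24.0% lower and 23.8% higher. The remaining member, comp46747_c1, had no count in either store. Libraries of both stores did not overlap for the same number, 16 lower and 0 higher, beside 60.4% of all contigs, 30.8% lower and 29.5% higher. For 4 °C against roots not stored, 17 of 17 were called lower, beside 52.5% of all contigs called, 26.6% lower and 26.0% higher. Libraries did not overlap for 17 of 17, all lower, beside 60.0% of all contigs, 30% lower and 30.1% higher. For 14 °C against roots not stored, 6 were called lower, 1 higher and 10 did not pass, beside 30.9% of all contigs called, 15.7% lower and 15.1% higher. The comparisons share libraries and are given side by side, not as separate support.

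The median log2 fold change of the members was -7.99 for 4 °C against 14 °C over 16 members, or -7.94 with the member at 0 set at its bound. It was -8.99 for 4 °C against roots not stored, or -8.93 with bounds, and -1.03 for 14 °C against roots not stored, with or without bounds. Over all contigs the medians were -0.08, -0.02 and 0.02. Leaving out members without a count in a group, the fold changes at 4 °C were close together: -8.58 to -6.19 against 14 °C and -9.49 to -8.09 against roots not stored, over 15 members. At 14 °C against roots not stored they ran from -3.15 to 2.17 over 16 members. All were below 0 except those of comp24450_c2 (0.34) and the rare comp15873_c1 (2.17).

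**Figure D2:**
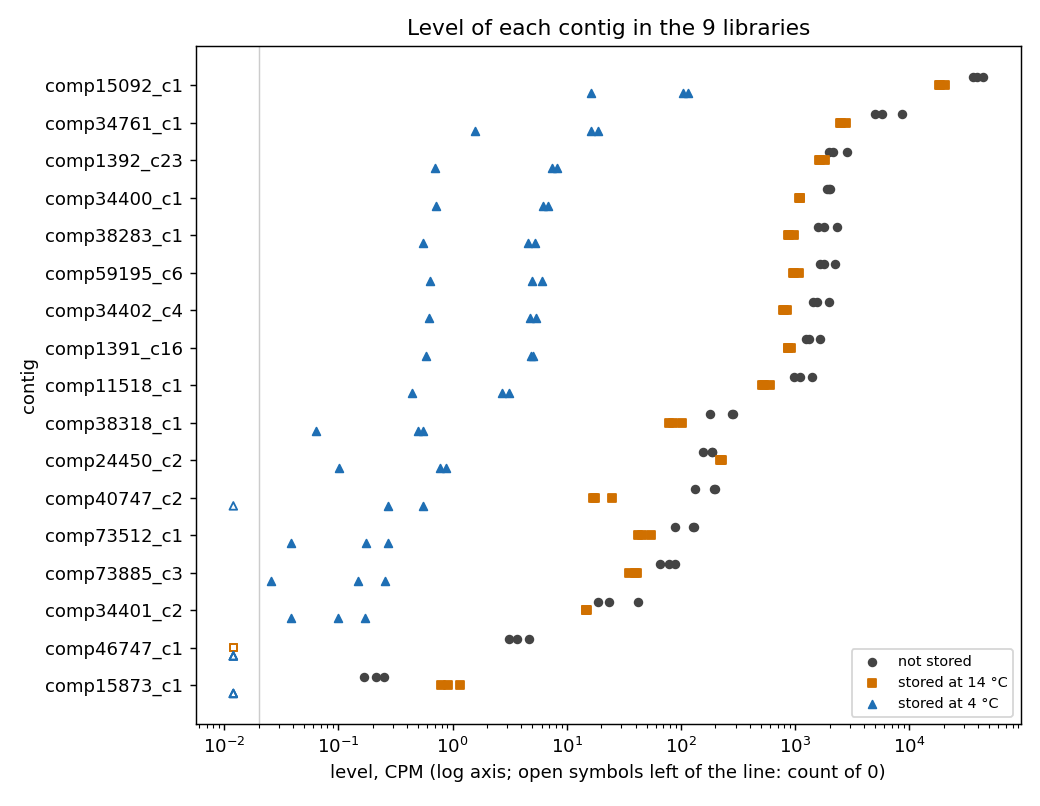
Level of each of the 17 contigs in CPM (log axis) in the 9 libraries, with circles for roots not stored, squares for 14 °C and triangles for 4 °C; open symbols left of the line are counts of 0. At 4 °C, 2 libraries lie together and replicate 3 lies lower in each of the 15 contigs with a count there.

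The most abundant member was comp15092_c1. It had 44100, 38900 and 36300 CPM in roots not stored, 18000, 18500 and 20500 at 14 °C, and 114, 104 and 16.2 at 4 °C. The groups did not overlap. Its means were 39800 ± 4000, 19000 ± 1320 and 78.3 ± 54 CPM, with a log2 fold change of -7.92 ± 0.73 (SE, edgeR, adjusted p = 2.3e-05) for 4 °C against 14 °C. For 14 °C against roots not stored it was -1.06 ± 0.55 (SE, adjusted p = 0.17). By the deposited TPM, which account for contig length, it ranked at place 2 of all contigs in roots not stored, place 1 at 14 °C and place 1612 at 4 °C. It held 67.0%, 65.6% and 66.0% of the members' summed CPM in these 3 groups.

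The next member, comp34761_c1, had 8660, 5720 and 5000 CPM in roots not stored, 2460, 2500 and 2790 at 14 °C, and 18.6, 16.3 and 1.56 at 4 °C. Per length it ranked just behind comp15092_c1, at TPM places 3 and 2 in roots not stored and at 14 °C. In roots not stored its 30500 ± 6550 TPM lay near the 37700 ± 1740 TPM of comp15092_c1, although the CPM of comp15092_c1 was several times higher on a longer contig. Its log2 fold change for 4 °C against 14 °C was -7.73 ± 0.87 (SE, edgeR, adjusted p = 8.1e-05).

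The contig comp1392_c23 had the smallest difference between 14 °C and roots not stored among the abundant members. It had 2830, 2140 and 1990 CPM in roots not stored against 1630, 1640 and 1840 at 14 °C, which left 73.5% (log2 fold change -0.45 ± 0.6, SE, edgeR, adjusted p = 0.62). At 4 °C it had 8.14, 7.38 and 0.698 CPM, 0.233% of the level in roots not stored. By TPM it stood at place 5 in roots not stored and place 4 at 14 °C. Deposited TPM carry no scaling between libraries, so they order contigs within a group here and are not compared across groups.

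Another 6 members lay between 1170 and 1960 CPM in roots not stored. Among them, comp34400_c1 had 1980, 2030 and 1880 CPM in roots not stored, 1090, 1110 and 1070 at 14 °C, and 6.87, 6.18 and 0.711 at 4 °C. It varied least within both of the first groups, with SDs of 78.3 and 21.8 CPM. For comp38283_c1 the values were 2330, 1780 and 1570 CPM in roots not stored, 870, 886 and 984 at 14 °C, and 5.27, 4.61 and 0.546 at 4 °C. For comp59195_c6 they were 2220, 1780 and 1660, then 954, 976 and 1080, then 6.06, 4.93 and 0.635 CPM in the same order of groups. In each of these the 3 groups stood apart, and the third library at 4 °C was several times lower than the other 2.

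Of the others in this range, comp34402_c4 had 1960, 1560 and 1430 CPM in roots not stored, 777, 798 and 848 at 14 °C, and 5.41, 4.78 and 0.622 at 4 °C. The shortest member, comp1391_c16, had 1640, 1310 and 1230, then 857, 858 and 914, then 5.01, 4.87 and 0.584 CPM. The lowest of the 6, comp11518_c1, had 1410, 1100 and 984, then 509, 532 and 599, then 3.14, 2.69 and 0.444 CPM. All 6 were lower at 4 °C than at 14 °C in every library, with log2 fold changes of -8.04 to -7.81, and kept 46.9% to 62.8% of the level of roots not stored at 14 °C. Per length these 6 stood at TPM places 6 to 18 in roots not stored, so that all 9 members above 1000 CPM were among the leading 18 contigs there.

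Below them the members differed more from each other, above all at 14 °C. The contig comp38318_c1 had 278, 283 and 181 CPM in roots not stored, 77.7, 84.5 and 102 at 14 °C, and 0.497, 0.548 and 0.0635 at 4 °C. It was called lower at 14 °C than in roots not stored (log2 fold change -1.49 ± 0.36, SE, edgeR, adjusted p = 0.012). The largest difference at 14 °C among members with counts in all groups was that of comp40747_c2, with 194, 199 and 132 CPM in roots not stored and 17, 17.5 and 24.7 at 14 °C. It kept 11.3% of its level there (log2 fold change -3.15 ± 0.5, SE, edgeR, adjusted p = 0.0016). At 4 °C it had 0.554 and 0.274 CPM in replicates 1 and 2 and no count in replicate 3.

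The contig comp24450_c2 was the member above 10 CPM whose level at 14 °C was not below that of roots not stored. It had 188, 187 and 155 CPM in roots not stored and 228, 224 and 218 at 14 °C; its log2 fold change was 0.34 ± 0.37 (SE, edgeR, adjusted p = 0.52). All 3 libraries at 14 °C lay above the 3 of roots not stored, but the difference did not pass the test. At 4 °C it had 0.781, 0.872 and 0.102 CPM and was called lower than at 14 °C (-8.58 ± 0.53, SE, edgeR, adjusted p = 1e-06). It was 1.27 times as high at 14 °C as in roots not stored, where comp40747_c2 was 8.88 times lower, so members with the same annotation text and near-equal levels in roots not stored (177 ± 18.9 and 175 ± 37.5 CPM) stood far apart at 14 °C.

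The next 3 members, the lowest above 10 CPM in roots not stored, were all called lower at 14 °C than in roots not stored, and were called lower again at 4 °C than at 14 °C. The contig comp73512_c1 had 115 ± 23.2, 47.6 ± 6.6 and 0.161 ± 0.116 CPM in roots not stored, at 14 °C and at 4 °C. The contig comp73885_c3 had 77.4 ± 11.6, 38.5 ± 3.47 and 0.143 ± 0.115 CPM. The contig comp34401_c2 had 27.9 ± 12.1, 14.8 ± 0.114 and 0.103 ± 0.0662 CPM. Against roots not stored, comp34401_c2 lost its call in edgeR at 14 °C with library totals as scale (adjusted p = 0.079), and without replicate 1 of roots not stored or without any 1 library at 14 °C (adjusted p = 0.078 to 0.099). Without replicate 1 at 14 °C the calls of comp73885_c3 (adjusted p = 0.055) and of comp38318_c1 (adjusted p = 0.057) were lost too.

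The remaining 2 members were rare, and the per-library values given here were chosen after they were seen. The 707-base contig comp46747_c1 was found in roots not stored only, with 311, 385 and 242 counts there and 0 counts in all 6 libraries of stored roots. Its mean of 3.8 ± 0.759 CPM in roots not stored was at least 107-fold higher than at 14 °C and at least 96.6-fold higher than at 4 °C, against a floor of 3 counts per library. No fold can be given between the stores. Of the 17 members it was the single one with no count at 14 °C.

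The rarest, comp15873_c1, was the member called higher at 14 °C than in roots not stored. It had 18, 21 and 13 counts in roots not stored, 86, 70 and 85 at 14 °C, and 0 in each library at 4 °C. Mean levels were 0.211 ± 0.0422 and 0.955 ± 0.197 CPM, and the log2 fold change was 2.17 ± 0.37 (SE, edgeR, adjusted p = 0.0017). It was at least 24.3-fold higher at 14 °C than at 4 °C, and in roots not stored at least 5.35-fold higher than at 4 °C, against the same floor. Under the stricter filter it was not tested.

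**Figure D3:**
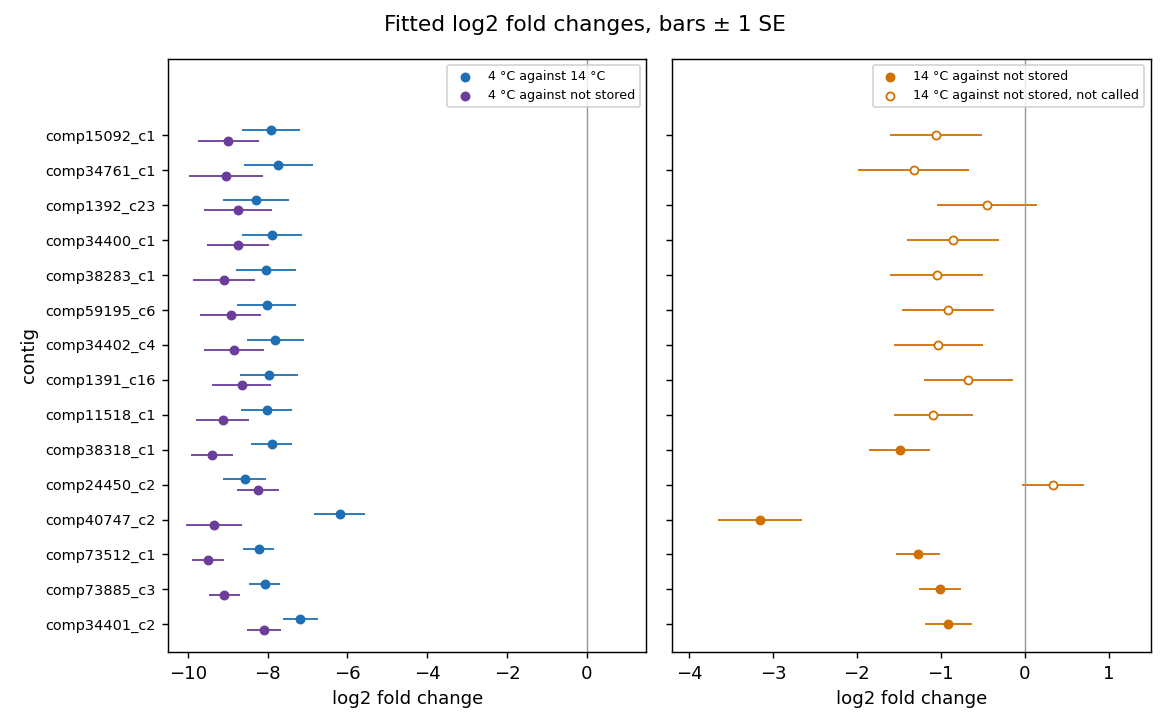
Fitted log2 fold changes of the 15 members with counts in all groups, with bars of 1 SE either way; filled points passed a false discovery rate of 0.05 and open points did not. At 4 °C all 15 lie between -9.49 and -6.19; at 14 °C against roots not stored they lie between -3.15 and 0.34, and 5 passed.

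At 14 °C the libraries of both groups did not overlap for any member: 15 were lower than roots not stored in every library and 2 were higher (comp24450_c2 and comp15873_c1), beside 44.6% of all contigs without overlap, 22.0% lower and 22.6% higher. The edgeR test called 6 and 1 of these. All 3 groups share 1 estimate of the spread per contig in that fit, and the SD at 4 °C of comp15092_c1 was 54 CPM on a mean of 78.3, against 1320 on 19000 at 14 °C. Fitted without the libraries at 4 °C, 14 members were called lower. Without replicate 3 at 4 °C, 15 were called lower and 2 higher, while without replicate 1 at 14 °C the number called lower was 3. DESeq2 called 9 lower.

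At 4 °C, replicate 3 was the lowest library in 15 of 15 members with a count there, and replicate 1 the highest in 13 and replicate 2 in 2. The other 2 members, comp46747_c1 and comp15873_c1, had no count at 4 °C. For the 9 members above 300 CPM in both other groups, the mean of replicates 1 and 2 was 6.56 to 11.2 times that of replicate 3. Set against the mean of roots not stored, these 9 kept 0.269% to 0.359% in replicate 1, 0.23% to 0.349% in replicate 2 and 0.0242% to 0.0419% in replicate 3. Over all 15 members with at least 10 CPM in roots not stored, the ranges were wider, 0.201% to 0.611%, 0.152% to 0.493% and 0% to 0.136% in replicates 1 to 3, with medians of 0.322%, 0.262% and 0.0337%.

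For description, contigs that are neither members nor sporamin were taken by a rule that itself sets them low at 4 °C. There were 14 that exceeded 300 CPM in roots not stored and at 14 °C and dropped more than 50-fold between the stores, and they kept at least 0.252%, 0.223% and 0.0307% in replicates 1 to 3, with medians of 0.726%, 0.453% and 0.247%. They include the beta-amylase BMY1 and 3 AGPS1 contigs of starch synthesis. Also among them are comp17053_c17, comp81210_c2 and comp100305_c1, endopeptidase inhibitors whose ontology text does not name the vacuole. Their medians lay above those of the members. The rule caps their level at 4 °C, relative to 14 °C, from above and sets no lower limit. The 9 GSPO contigs, taken by symbol, had medians of 0.346%, 0.242% and 0.0247% in replicates 1 to 3. Differences between these sets were not tested. With replicates 1 and 2 at 4 °C both left out, 16 members were called lower at 4 °C than at 14 °C, and the log2 fold change of comp15092_c1 was -10.2.

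**Figure D4:**
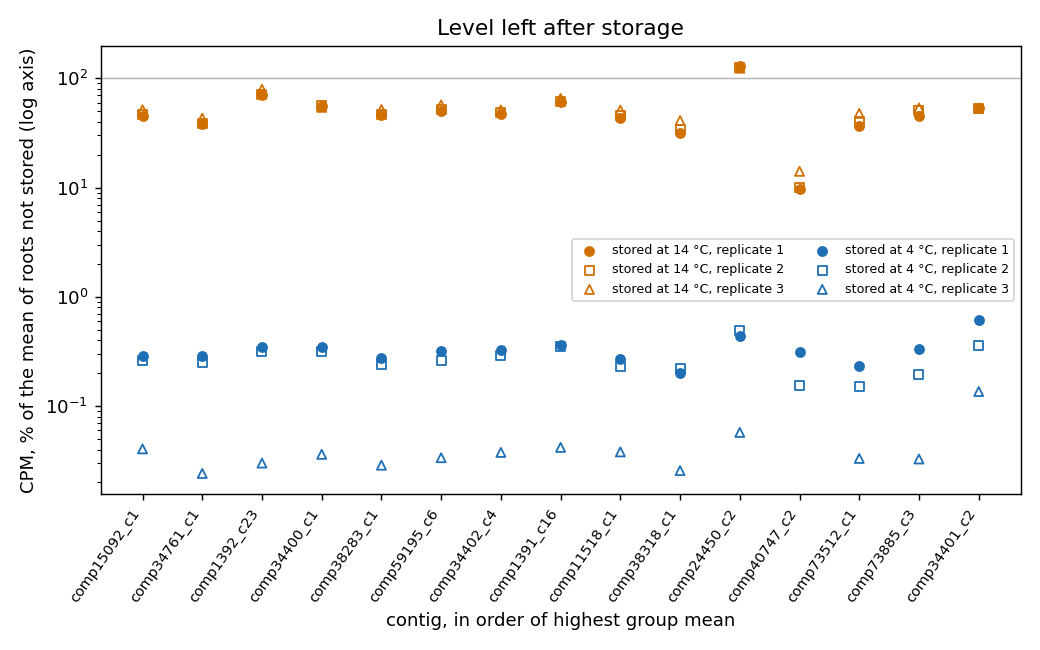
CPM in each library of stored roots as a percentage of the mean of roots not stored (log axis), for the 15 members with at least 10 CPM in roots not stored; orange marks 14 °C, blue marks 4 °C, and shapes mark replicates. At 14 °C most members keep 31.4% to 79.5%, with comp40747_c2 below and comp24450_c2 above; a count of 0 (comp40747_c2, replicate 3 at 4 °C) is not drawn.

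Other libraries also had an order shared by the members. Among roots not stored, replicate 3 was the lowest in 17 of 17 members and replicate 1 the highest in 10. At 14 °C, replicate 3 was the highest in 14 of 16. As the members may share reads, these counts describe libraries and not separate genes.

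Set against comp15092_c1, some members kept their proportion of CPM and others did not. The CPM of comp38283_c1 were 4.32% to 5.28% of those of comp15092_c1 among roots not stored, between 4.79% and 4.83% at 14 °C, and between 3.38% and 4.61% at 4 °C. The contig comp40747_c2 stood at 0.363% to 0.512% among roots not stored but at 0.0943% to 0.121% at 14 °C, and comp24450_c2 at 0.426% to 0.481% but at 1.06% to 1.27%. The root mean square difference of log2(CPM + 0.5), each contig centred on its own mean over the 9 libraries, was 0.143 to 0.306 from comp15092_c1 for 8 members. For the other 8, all with lower levels, it was 0.87 to 3.87. The added 0.5 narrows the differences of contigs far below 0.5 CPM at 4 °C, so this distance also follows abundance and does not show which members kept their proportion. At a distance of 1.32, comp73885_c3 had 0.178% to 0.227% of the CPM of comp15092_c1 in libraries without storage, from 0.192% up to 0.213% in the 14 °C libraries, and from 0.143% up to 0.224% in the 4 °C libraries.

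Among 17957 contigs that are no member, carry a symbol and reach 5 CPM in a group, the 5 most like comp15092_c1 by that measure were BMY1 and 4 sporamin contigs. BMY1 (comp34415_c1), a beta-amylase that releases maltose from starch, was at a distance of 0.132, with 8920 ± 814 CPM in roots not stored, 3500 ± 269 at 14 °C and 16.1 ± 11.6 at 4 °C. The sporamin contigs were GSPO-B1 comp73886_c20 at 0.272, GSPO-A1 comp14776_c28 at 0.371, GSPO-B1 comp37147_c2 at 0.393 and GSPO-B1 comp1393_c34 at 0.419.

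The summed CPM of the members stood higher at 14 °C relative to the summed CPM of the GSPO contigs. The sum over the members was 0.624, 0.554 and 0.757 of the GSPO sum in the 3 libraries of roots not stored, 1.06, 0.996 and 0.891 at 14 °C, and 0.756, 0.743 and 0.943 at 4 °C. The libraries at 14 °C lay above those of roots not stored without overlap. Each sum is carried by few contigs, that of the members by comp15092_c1. Per contig the sets lay close together: for 14 °C against roots not stored the median log2 fold change was -1.03 over the members and -1.12 over the GSPO contigs. The difference was not tested, since the members were chosen with results known. Roots not stored had 2.05 times the level of roots at 14 °C in the sum of the members and 3.16 times in the sum of the GSPO contigs. Of the 9 GSPO contigs, 9 were called lower at 4 °C than at 14 °C and 2 lower at 14 °C than in roots not stored.

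Endopeptidase inhibitors whose ontology text does not place them in the vacuole moved in both directions between the stores. Against roots not stored, more of them were lower than higher in each store. Of 47 tested contigs, 19 were higher and 17 lower at 4 °C than at 14 °C, beside 23.8% and 24.0% of all contigs. The median log2 fold change of the 47 was 0.25. At 4 °C against roots not stored, 16 of the 47 were higher and 25 lower, with a median of -1.16, beside 26.0% and 26.6% of all contigs. At 14 °C against roots not stored 5 were higher and 24 lower, with a median of -0.88, beside 15.1% and 15.7% of all contigs. The most abundant was comp17053_c17, a contig with the term for inhibitors of cysteine proteases, at 2410 ± 541 CPM in roots not stored, 1560 ± 198 at 14 °C and 8.77 ± 4.42 at 4 °C. With the same term, comp81210_c2 had 939 ± 136 CPM at 14 °C and 12.9 ± 3.84 at 4 °C, and comp99255_c1 had 566 ± 75.2 and 12.2 ± 3.04. The contig comp65820_c1, with the term for inhibitors of serine proteases, had 2400 ± 875 CPM in roots not stored. It had 66.8 ± 19.5 CPM at 14 °C and 98.1 ± 6.65 at 4 °C. Both stores were called lower than roots not stored (log2 fold changes -5.17 and -4.61) but were not called different from each other. A large drop at 4 °C was therefore not particular to the members. The 6 contigs of CYS6, a cystatin, which inhibits papain-like cysteine proteases, were all higher at 4 °C than at 14 °C, by 0.76 to 1.25 on the log2 scale. CYS6 comp17276_c2, the most abundant, had 76.5 ± 18.1, 87.8 ± 3.64 and 152 ± 18.6 CPM in roots not stored, at 14 °C and at 4 °C.

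Proteases were counted by class. Over all contigs tested, 23.8% were higher and 24.0% lower at 4 °C than at 14 °C. Against roots not stored these shares were 26.0% and 26.6% at 4 °C, and 15.1% and 15.7% at 14 °C. Both legumain contigs were higher at 4 °C than at 14 °C and higher at 14 °C than in roots not stored; At4g32940 (comp27015_c1) had 28.4 ± 5.46 CPM in roots not stored, 176 ± 37.9 at 14 °C and 1140 ± 222 at 4 °C. Of 32 papain-like cysteine proteases, 21 were higher and 3 lower at 4 °C than at 14 °C, with a median log2 fold change of 1.16. RD21A (comp76329_c1), whose text names the vacuole, had 293 ± 15.3, 430 ± 8.19 and 1540 ± 39.5 CPM in the same order of groups. Of 12 aspartic proteases, 1 was higher, 6 were lower and 5 were not called at 4 °C against 14 °C, and 4 were higher and 3 lower at 4 °C against roots not stored. The 1 that was higher at 4 °C than at 14 °C is also the most abundant, the phytepsin comp83657_c1, which had 518 ± 29.4 CPM at 14 °C and 792 ± 19.5 at 4 °C.

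Of 109 serine carboxypeptidases, which trim proteins from the carboxyl end, 39 were higher and 21 lower at 4 °C than at 14 °C. Their median log2 fold change was -0.05, near the -0.08 of all contigs. SCPL18 (comp86413_c1), whose product description names an acyltransferase of this family, had 548 ± 36.1 CPM at 4 °C and 0.654 ± 0.161 at 14 °C. Of 75 subtilisin-like proteases, most of which act outside the cell, 18 were higher and 41 lower at 4 °C than at 14 °C, with a median of -1.33. ARA12 (comp61521_c1) had 29.6 ± 5.12 CPM at 4 °C against 209 ± 25.8 at 14 °C. Of 22 tested contigs with nutrient reservoir activity that are neither members nor sporamin, a list added after the values were seen, 14 were higher and 1 lower at 4 °C than at 14 °C. Against roots not stored, 11 were higher and 4 lower at 4 °C, beside 26.0% and 26.6% of all contigs. At 14 °C against roots not stored, 3 were higher and 9 lower, beside 15.1% and 15.7% of all contigs.

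Across the series, the total of estimated counts per library, in units of 1000000, was 67.6 to 95.4, and a count of 0 allows up to 0.0318 to 0.0426 CPM (3 counts, counting error only). Markers of the storage root (sporamin and ADP-glucose pyrophosphorylase contigs, 43 in all) summed to 104000 ± 20000 CPM in roots not stored, 57900 ± 3650 at 14 °C and 263 ± 151 at 4 °C, although the labelled tissue is root in all groups. The 9 GSPO contigs held 94000 ± 21300 of this sum in roots not stored, and the counts of contigs differ from it: of 42 tested, 28 were higher and 2 lower at 14 °C than in roots not stored, with a median log2 fold change of 1.32. At 4 °C, 0 were higher and 35 lower than at 14 °C, and 6 were higher and 33 lower than in roots not stored. Photosystem and light-harvesting contigs summed to 2070 ± 388, 589 ± 11.5 and 192 ± 15.7 CPM, and histones to 2320 ± 353, 1900 ± 246 and 4230 ± 211 CPM. The part of these differences in the members' levels was not tested. In bulk samples, fewer cells of a type and less RNA per cell cannot be told apart.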

How the data were processed

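The authors deposited, per the file headers, estimated counts, TPM and RPKM per contig and library. Tools listed without a role in the submitters' processing notes are edgeR, DESeq2, StringTie 1.3.4d, HISAT2 2.0.4 and cutadapt 1.9; what made the contigs and counts, and the strand, are not given in the sources used here. RPKM values, scaled by the authors by length and library total, were not used further; the deposited TPM gave ranks between contigs. The labels name root as tissue, while their extraction text names retina. Expected (estimated) counts, deposited with decimals, were rounded and tested in edgeR 4.0.16 (R 4.3.3): TMM scaling, filterByExpr, robust quasi-likelihood fit over 9 libraries, Benjamini-Hochberg over 94802 contigs. An SE is the log2 fold change divided by the square root of F. P-values measure the spread between pools. The members, lists and rules were chosen with earlier results of these data known. Members with at least 1 CPM in a group were named, the 12 most abundant with all values, and from each list its most abundant contig. Outside this rule, comp15873_c1 (under 1 CPM in every group) and values of members beyond those 12 were chosen after their values were seen. The same holds for the other CYS6 contigs and for the endopeptidase inhibitors outside the vacuole named besides comp17053_c17. Replicate numbers are from the labels. Same-numbered libraries had positive correlations of deviations in all 3 pairs only for 4 °C against roots not stored (0.348, 0.113 and 0.363). Differently numbered libraries ran from -0.36 to 0.118 in that comparison and reached 0.58 elsewhere, so pairing by number is not settled. The serpin list matched nothing, and 2 of 8 contigs matched as cystatins by symbol are cysteine synthases and were left out of the text. The test was also run on simulated counts with far smaller changes than those of the members at 4 °C. There each contig had the same spread in all groups, so the larger relative spread at 4 °C is not covered. DESeq2 1.42.0 was an alternative. None of the members matched the reference gene table (0 of 17). Python 3.11.15, pandas 2.3.3 and matplotlib 3.10.9 read and drew the tables.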

Additional observations from a re-analysis of the deposited data

How the results depend on the processing

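For both comparisons of roots at 4 °C, the calls of every tested member and their direction held in all alternatives run (2 other scalings, 2 other filters, a block by replicate number, fits of just the groups compared, the Wald test of DESeq2, the 100 most abundant contigs removed, single libraries left out, and replicates 1 and 2 at 4 °C left out together, chosen after seeing the data). With the 100 most abundant contigs removed, 8 members were left to test, and 7 were lower at 4 °C than at 14 °C and 8 lower than in roots not stored. With each library left out in turn, 16 to 16 and 17 to 17 members were called lower. With replicates 1 and 2 at 4 °C left out, where the lone library is assumed to vary like the other groups, all contigs called numbered 26247 against 14 °C and 33069 against roots not stored, beside 45357 and 49812. For 14 °C against roots not stored, the members called lower were 6, or 14 with only the 2 groups compared, 14 without replicates 1 and 2 at 4 °C, and 3 to 15 with each library left out. Those called higher were 1, or 0 under the stricter filter, which did not test comp15873_c1, and 1 to 2 with each library left out. The summed level of the members at 14 °C was 31800 CPM with library totals alone, and 27900 to 29700 with each library left out; at 4 °C that range was 90.2 to 167. Library totals moved the median of all contigs by 0.25 (log2) for 14 °C against roots not stored and by -0.15 for 4 °C against 14 °C, and no member changed direction. Deviations of same-numbered libraries correlated at -0.382, -0.0486 and -0.315 between both stores and at -0.47, -0.00883 and -0.625 between 14 °C and roots not stored. Between 4 °C and roots not stored they correlated at 0.348, 0.113 and 0.363. In that last comparison differently numbered libraries ran from -0.36 to 0.118, below the values of replicates 1 and 3. Elsewhere they reached higher values, such as 0.58 for replicate 3 of roots not stored with replicate 1 at 14 °C. For the comparisons with 14 °C these values do not show that the numbers pair samples. For 4 °C against roots not stored they do not settle it. With the replicate number as a block, 16, 17 and 6 members were called lower, as without it, and 46420 contigs in all for 4 °C against roots not stored, beside 49812, and 24561 for 14 °C against roots not stored, beside 29250; no call of a member changed.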
